A study of Saccharomyces cerevisiae with 50 samples.

Results

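The 33 genes described here encode the yeast proteasome and its activator. They are the 14 subunits of the core particle (PRE1 to PRE10, PUP1, PUP2, PUP3 and SCL1), the 18 measured subunits of the regulatory particle (10 of the base, RPT1 to RPT6, RPN1, RPN2, RPN10 and RPN13, and 8 of the lid, RPN3, RPN5 to RPN9, RPN11 and RPN12) and RPN4. They were chosen by gene identifier and not by any measured value, though earlier results of these data were known. They came from 5743 genes in the mRNA-seq table of the deletion strains, 5666 in the Ribo-seq table and 5739 to 5742 in the tables of the GCN4 strains. All 33 passed the filter on low counts in every table.

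The series compared strains of Saccharomyces cerevisiae that lack 1 ribosomal protein paralog with wild type, and strains that overexpress GCN4, the activator of amino acid biosynthesis genes, with their own controls. Wild type was BY4741 (MATa his3Δ1 leu2Δ0 met15Δ0 ura3Δ0), and the deletions rpl7a, rpl9a, rpl6a, rpl15b and rps27b, each a replacement by kanMX4, were compared with it by mRNA-seq (3 libraries a strain) and by Ribo-seq of ribosome-protected footprints taken with cycloheximide (3 libraries a strain, 2 for Δrpl6a). Strains grew in rich medium to mid-log phase, and the study classed Δrpl7a and Δrpl9a as long-lived and the other 3 deletions as short-lived. In PADH1-GCN4 the constitutive ADH1 promoter replaces the promoter and 5′ untranslated region of the chromosomal GCN4. It and its version with the S242L mutation were compared by mRNA-seq with a BY4741 wild type in which MET15 was reintegrated. They and this wild type are MATa his3Δ1 leu2Δ0 ura3Δ0. PGAL-GST-GCN4 carries GST-tagged GCN4 under a galactose promoter on the high-copy URA3 plasmid pEGH. It was compared by mRNA-seq with a wild type that carries the empty URA3 plasmid pRS426, and both are BY4741 with met15Δ0. Each of these GCN4 strains and controls had 3 libraries, so the series holds 50 samples in 17 groups. The study describes the libraries of a strain as biological replicates.

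The proteasome degrades proteins that carry ubiquitin chains. In its core particle, PRE3, PUP1 and PRE2 carry the catalytic sites inside stacked rings that the other core subunits complete. In the regulatory particle, ubiquitin receptors such as RPN10 and RPN13 bind the substrate, the ATPases RPT1 to RPT6 unfold it and RPN11 removes its ubiquitin. Rpn4 activates most subunit genes through a promoter sequence, the proteasome-associated control element, and is itself a very short-lived substrate of the proteasome, so that its level is set in a feedback loop. RPN4 transcription in yeast responds to Hsf1, Yap1, Pdr1 and Pdr3.

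The element GGTGGCAAA was searched on both strands from 250 bases before to 50 bases after the start codon of each gene (RefSeq, R64, which is sacCer3). It was present at 27 of the 32 subunit genes (84.4%), 12 of 14 for the core and 15 of 18 for the regulatory particle, and at 72 of 6007 coding genes (1.2%). The shorter form GGTGGCAA, which lies within it, gave the same 27 subunits and 1.68% of all genes. The elements lay 84 (RPT6) to 183 (PUP3) bases before the start codon, with a median of 120, 19 in the direction of the gene and 8 in the other. The windows of PRE5, PUP1, RPN8, RPN10, RPN13 and RPN4 held no match, which says only that these letters are not in those windows. The sites of 8 subunits whose levels are described further on are shown with 10 bases on either side. They are printed on the coding strand of the gene with the element in capitals. PRE4 and RPT1 hold the element in the reverse direction, and the surrounding bases were not compared. PRE2 (catalytic) is at chrXVI:732184-732212, PRE3 (catalytic) at chrX:435035-435063, PRE4 (a noncatalytic beta subunit) at chrVI:249959-249987 on the minus strand, RPT1 (ATPase) at chrXI:174048-174076, RPT6 (ATPase) at chrVII:411352-411380, RPN9 (lid) at chrIV:1322086-1322114, RPN11 (deubiquitinase) at chrVI:153259-153287 and PUP3 (a noncatalytic beta subunit) at chrV:349511-349539.
PRE2: acagcaaaagGGTGGCAAAacgaagaata
PRE3: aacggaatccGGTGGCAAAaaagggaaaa
PRE4: tggtttagaaTTTGCCACCttaaatacgt
RPT1: attaccgaatTTTGCCACCcgaaaactaa
RPT6: atgcgagcgaGGTGGCAAAagttgtaata
RPN9: gctttcatccGGTGGCAAAagtaagaaca
RPN11: ggacctccaaGGTGGCAAAttcacaagaa
PUP3: tggcactgccGGTGGCAAAaaagtgcaaa

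The Gcn4 site TGACTCA, searched in the same windows, was at 0 of the 32 subunit genes and not at RPN4, against 2.73% of all genes. At that share few matches would be expected among 32 genes, so the 0 says little. The study instead scored a Gcn4 matrix over a longer upstream region and reported high-scoring sites for all its ChIP targets. PRE4 and RPN9 are on its list, so the lack of these exact letters does not speak to Gcn4 binding. The heat shock units GAANNTTC and TTCNNGAA were at 6 subunit genes (18.8%), against 22.6% of all genes. RPN4 held both units joined into 1 run, 21 bases before its start codon on the minus strand of chromosome IV, at chrIV:416709-416737, printed on its coding strand with the joined units in capitals because its own level is a main result. The letters TCCGCGGA and TCCGTGGA of Pdr1 and Pdr3 sites (0.616% of all genes) and TTAGTCA and TTACTAA of Yap1 sites (10.9%), searched in the same way, were not in the RPN4 window.
RPN4: caaaagttTTCTAGAATTTTCaagcaatc

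The libraries held 5709195 to 12696200 counted reads for mRNA-seq of the deletions, 8092039 to 15437373 for Ribo-seq, 14061819 to 25642672 for the PADH1-GCN4 set and 10722664 to 13693442 for the PGAL-GST-GCN4 set, of which the subunits took 0.684% to 1.07%. Each deleted gene was at 0.545 to 3.90 CPM (counts scaled to library size) in its own deletion's mRNA, against 60.1 to 2216 CPM in wild type. MET17, which the labelled met15Δ0 background lacks, stood at 44.6 CPM of mRNA and 96.9 CPM of footprints in Δrps27b, which goes against that label, while RPS27B itself was at 2.16 CPM there. For GCN4 itself, mRNA stood at 1032 CPM in PADH1-GCN4's control, at 3755 in PADH1-GCN4 and at 5539 in the S242L strain, and at 935 and 37334 CPM in the plasmid pair. In Δrps27b the genes of chromosome XI had a median log2 fold change of 0.95 in mRNA, and in Δrpl6a those of chromosome XII one of 0.63, against -0.01 for genes elsewhere in each. Among mRNA libraries of 1 strain, the third Δrpl9a library stood apart for these genes, with a median subunit shift from wild type of -0.23 on the log2 scale against 0.31 and 0.33 in the other 2.

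In wild type, subunit mRNAs differed more from each other than subunit footprints did. Per kilobase of coding length, mRNA ran from 137 CPM per kb for RPT3 to 540 for PRE9, a ratio of 3.95 with a median of 248, and footprints from 138 for RPN2 to 313 for PRE7, a ratio of 2.27 with a median of 222. The SD over the 32 genes on the log2 scale was 0.52 for mRNA and 0.33 for footprints, against 2.21 and 2.49 over all genes tested. Both particles had the narrower range in footprints. The study describes a limit to coding-region reads for Ribo-seq only. Counts of mRNA may thus hold reads of untranslated regions, which division by coding length does not correct. Their part in the wider mRNA range was not tested. The mRNA of the 14 core subunits, which enter the finished complex in equal numbers, spanned a ratio of 3.44 (SD 0.48) and their footprints one of 1.38, from 226 CPM per kb for PRE10 to 313 for PRE7 (SD 0.13).

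PRE7, a noncatalytic beta subunit, had the lowest core mRNA per kb (157) and the highest core footprint level (313). PRE9, an alpha subunit that yeast can live without, had the highest mRNA (540) and 261 for footprints. SCL1, another alpha subunit, stood at 386 for mRNA and 272 for footprints, and PUP2, an alpha subunit too, at 186 and 264. Across core subunits mRNA and footprint levels had a Pearson r of -0.409 and a Spearman rho of -0.327 (14 genes), and across the 18 regulatory subunits 0.671 and 0.742. These are descriptions across genes that share libraries and composition, and genes are not replicates. Regulatory mRNA spanned a ratio of 3.35 (SD 0.52) and regulatory footprints one of 1.94 (SD 0.25), with a footprint median of 176 per kb, from 138 for RPN2, the scaffold that holds RPN13, to 267 for RPN12 of the lid.

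**Figure D1:**
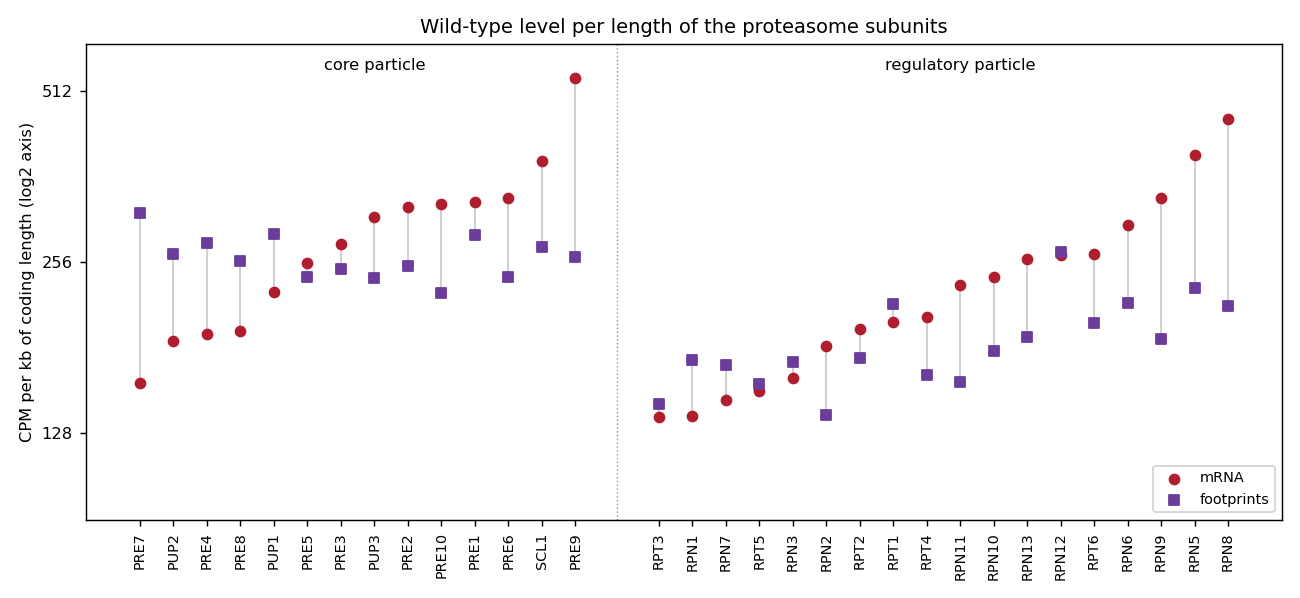
Wild-type level per kilobase of coding length (CPM per kb, log2 axis) of each subunit in mRNA-seq (red circles) and Ribo-seq (purple squares), core and regulatory subunits apart and each ordered by mRNA. Core mRNA runs from 157 to 540 while core footprints stay between 226 and 313.

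The same held in every library of the deletion set. The SD of log2 level per length over the core subunits was 0.398 to 0.607 in the 18 mRNA-seq libraries and 0.121 to 0.255 in the 17 Ribo-seq libraries, with no overlap. Among Ribo-seq libraries it was 0.121 to 0.163 in wild type, 0.132 to 0.175 in Δrps27b, 0.134 to 0.144 in Δrpl6a and 0.135 to 0.183 in Δrpl15b. It was 0.239 to 0.255 in Δrpl7a and 0.194 to 0.254 in Δrpl9a, above every library of the other 4 strains. In Δrpl7a core footprints ran from 232 CPM per kb for PRE2 to 420 for PRE7, a ratio of 1.81, and in Δrpl9a from 201 for PRE5 to 332 for PRE3, a ratio of 1.66. The wider spread was not tested.

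**Figure D2:**
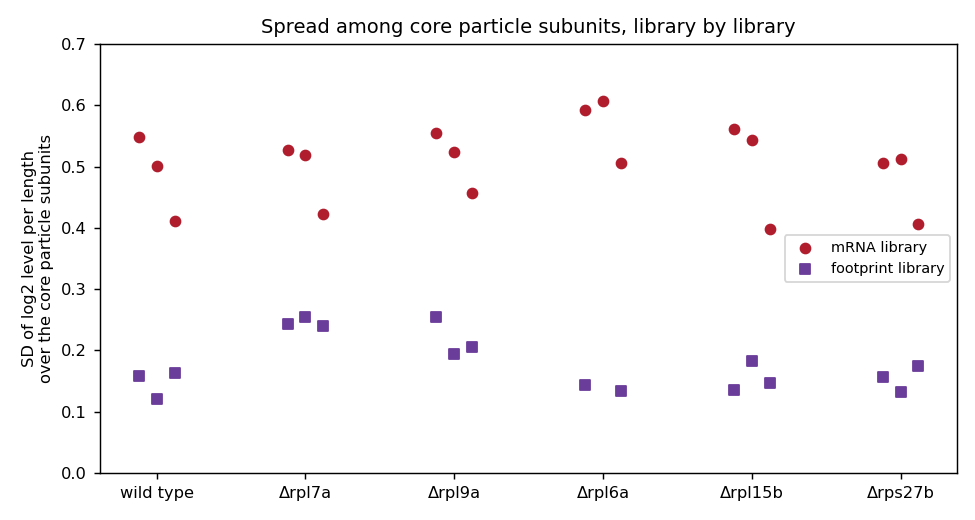
SD over the 14 core subunits of the log2 level per coding length, 1 point a library, for mRNA-seq (circles) and Ribo-seq (squares) in wild type and 5 deletions. Every Ribo-seq point is below every mRNA-seq point, and those of Δrpl7a and Δrpl9a, 0.194 to 0.255, are above the other Ribo-seq points.

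Most changes in subunit levels between strains were small. Over 21 comparisons of 32 subunits each, 57 of 672 tests passed the threshold (adjusted p below 0.01, edgeR quasi-likelihood test, Benjamini-Hochberg over all genes tested), and 4 of those exceeded a fold of 2, for RPT1 and RPN13 only. In the same comparisons 0.226% to 44.8% of all genes passed, and no share pooled over them is given. Of the 57 subunit calls, 23 were kept whichever single library was left out. PRE4, PRE10, RPT2, RPN1, RPN3, RPN5, RPN7 and RPN9 passed in none of these fits, which did not block on the replicate number. In mRNA-seq with that block, RPN9 passed in Δrpl7a, Δrpl9a and Δrps27b, RPN5 in Δrpl7a and Δrps27b, and RPN3 and PRE4 in Δrps27b. The block called 57%, 32.4% and 25.8% of all genes in Δrpl7a, Δrpl9a and Δrps27b. Comparisons with wild type share its libraries and are given side by side.

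In mRNA-seq of Δrpl7a, PRE2 rose by 0.46 (SE 0.12, edgeR adjusted p = 0.00475) and RPN11 by 0.52 (SE 0.14, adjusted p = 0.00373) on the log2 scale, and no subunit fell. These 2 of 32 compare with 44.8% of all genes past the test in either direction. RPN11 stood at 226, 226 and 191 CPM in the wild-type libraries and at 321, 342 and 260 in Δrpl7a. Every Δrpl7a library was above every wild-type library. The subunit median was 0.20, against 0.03 over all genes, 25 of 32 values were above zero, and the lowest was RPN1, a base scaffold, at -0.12 (adjusted p = 0.42). The count was 0 without wild-type library 1 or 3 or Δrpl7a library 1 or 2 and 1 without wild-type library 2, and the median was 0.12 without the third wild-type library. With the replicate number as a block, which paired these libraries, 7 subunits rose (PRE2, PRE7, RPT4, RPN5, RPN6, RPN9 and RPN11, 0.36 to 0.52), against 57% of all genes called.

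In Δrpl9a, PUP1 (YOR157C), the catalytic subunit with trypsin-like activity, fell, and no subunit mRNA rose. PUP1 stood at 187, 179 and 167 CPM in wild type and at 123, 129 and 106 in Δrpl9a, with the 3 deletion libraries below all of wild type. Its log2 fold change was -0.58 (SE 0.11, edgeR adjusted p = 0.00116), and 18.1% of all genes passed. The highest value was that of PRE8, an alpha subunit, at 0.38 (adjusted p = 0.0263), and the subunit median was 0.14. Without the third Δrpl9a library, 9 subunits passed, 8 higher and 1 lower, in a fit whose share of all genes is not given. With the replicate block 2 passed, PUP1 (lower) and RPN9 (0.35), against 32.4% of all genes.

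RPN13, the ubiquitin receptor of the base, was the 1 subunit whose mRNA passed in Δrpl6a, where 11.6% of all genes did, and the subunit median was 0.04. In Δrpl15b 0 subunits passed by edgeR, 0 had an unadjusted p under 0.05 and 0 passed by DESeq2. Of all genes, 0.656% passed by edgeR and 13.6% had an unadjusted p under 0.05. The median there was 0.06, with RPT1 highest at 0.22 (adjusted p = 0.524) and PUP1 lowest at -0.16 (adjusted p = 0.583). PUP1 was also the lowest in Δrpl6a, at -0.37 (adjusted p = 0.0263).

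In Δrps27b, the strain whose MET17 level goes against its label, 6 subunit mRNAs rose and 0 fell, with 13.8% of all genes past the test. They were RPT1 (1.20), PRE8 (0.62), RPN2 (0.56), RPT6 (0.55), RPT3 (0.54) and RPN12 (0.52) on the log2 scale. PRE8 stood at 137, 151 and 149 CPM in wild type and at 201, 239 and 230 in Δrps27b, and RPN2 at 493, 494 and 561 against 766, 697 and 817. For both, all Δrps27b libraries were above all wild-type libraries. The median of the 32 subunits was 0.37 (0.25 core, 0.36 base, 0.42 lid) against 0.02 over all genes, and 27 of 32 values were above zero. PUP1 was the lowest, at -0.39 (adjusted p = 0.0177). The count was 1 without the first wild-type or second Δrps27b library, 2 without the second wild-type library and 3 without the first Δrps27b library, and RPT1 was the call kept in each. With the replicate block 13 subunits rose and PUP1 fell, against 25.8% of all genes.

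**Figure D3:**
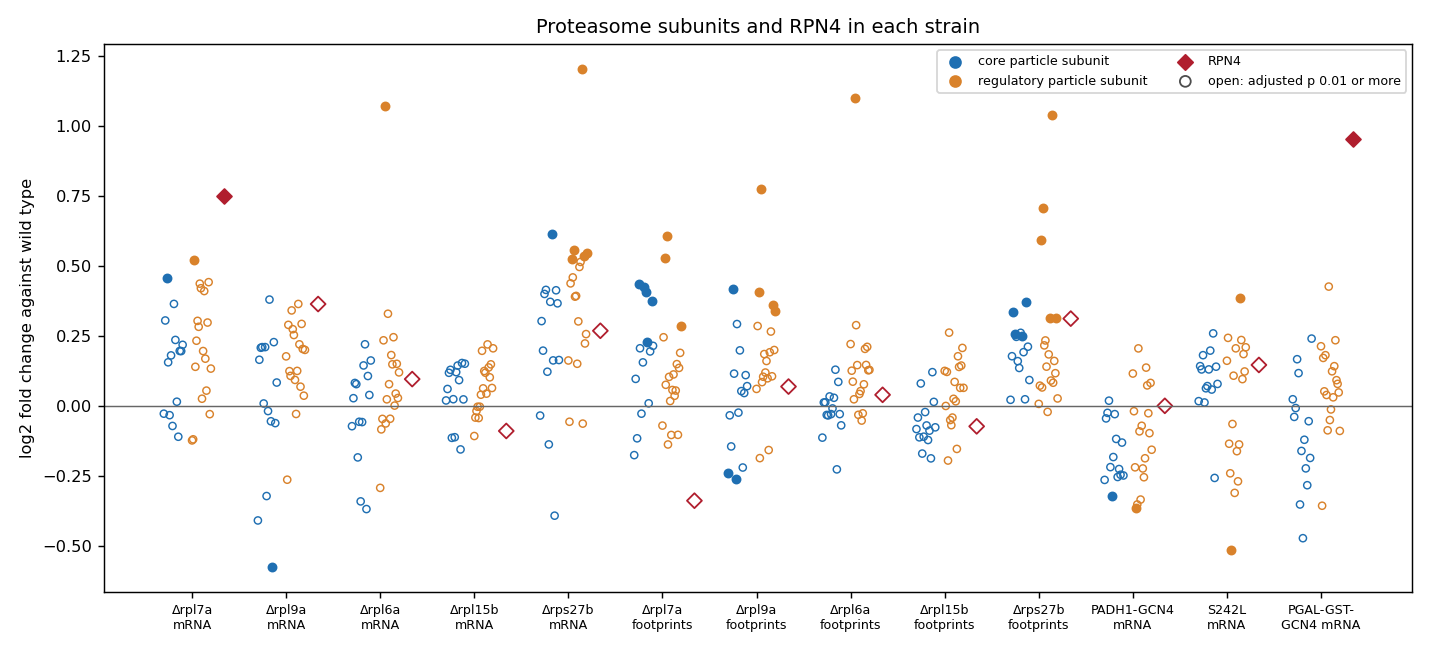
Log2 fold change against the matching control for each subunit (blue core, orange regulatory) and RPN4 (red diamonds) in 13 comparisons, filled where the adjusted p was below 0.01 and open otherwise. The highest subunit points are RPN13 in Δrpl6a (1.07 and 1.10) and RPT1 in Δrps27b (1.20 and 1.04), followed by RPN13 footprints in Δrpl9a (0.77), Δrps27b (0.71) and Δrpl7a (0.61), and RPN4 is at 0.75 in Δrpl7a mRNA and 0.96 with PGAL-GST-GCN4.

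RPT1 and RPN13 lie on the chromosomes whose median was raised in Δrps27b and Δrpl6a. RPT1 (YKL145W, chrXI:174213-175616, plus strand) is the only member on chromosome XI and RPN13 (YLR421C, chrXII:965090-965560, minus strand) the only one on XII. RPT1 mRNA was 288, 283 and 272 CPM in wild type and 660, 632 and 653 in Δrps27b, a log2 fold change of 1.20 (SE 0.14, edgeR adjusted p = 1.11e-05). Its footprints were 307, 325 and 276 CPM and 611, 622 and 634, a log2 fold change of 1.04 (adjusted p = 3.62e-09). Of all genes, 4.1% rose beyond a fold of 2 in mRNA and 3.54% in footprints. In both assays the 3 Δrps27b libraries lay far above the others and varied little. The chromosome's medians there were 0.95 for mRNA, with 295 of 302 genes above zero, and 0.90 for footprints.

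RPN13 mRNA was 152, 127 and 87.5 CPM in wild type and 289, 274 and 207 in Δrpl6a, without overlap, a log2 fold change of 1.07 (SE 0.24, edgeR adjusted p = 0.00403). That call was lost without wild-type library 2 or 3 or Δrpl6a library 1 or 2 (adjusted p of 0.0148 to 0.0267) and kept with the replicate block (1.09). Its footprints were 90.4, 94.0 and 81.9 CPM and 182 and 198, a log2 fold change of 1.10 (SE 0.10, adjusted p = 6.3e-08), and 3.99% and 2.17% of all genes rose beyond a fold of 2 in mRNA and footprints. The medians of chromosome XII there were 0.63 for mRNA, with 362 of 468 genes above zero, and 0.54 for footprints, with 339 of 452. RPN13 footprints rose in 3 other deletions too, where chromosome XII had footprint medians of -0.04 (Δrpl7a), 0.00 (Δrpl9a) and -0.03 (Δrps27b). They were 130, 150 and 125 CPM in Δrpl7a (0.61), 152, 148 and 156 in Δrpl9a (0.77) and 160, 136 and 139 in Δrps27b (0.71), each above all wild-type libraries and kept whichever library was left out. In Δrpl15b they were 115, 96.0 and 108, with a log2 fold change of 0.26 that did not pass (edgeR adjusted p = 0.0884).

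**Figure D4:**
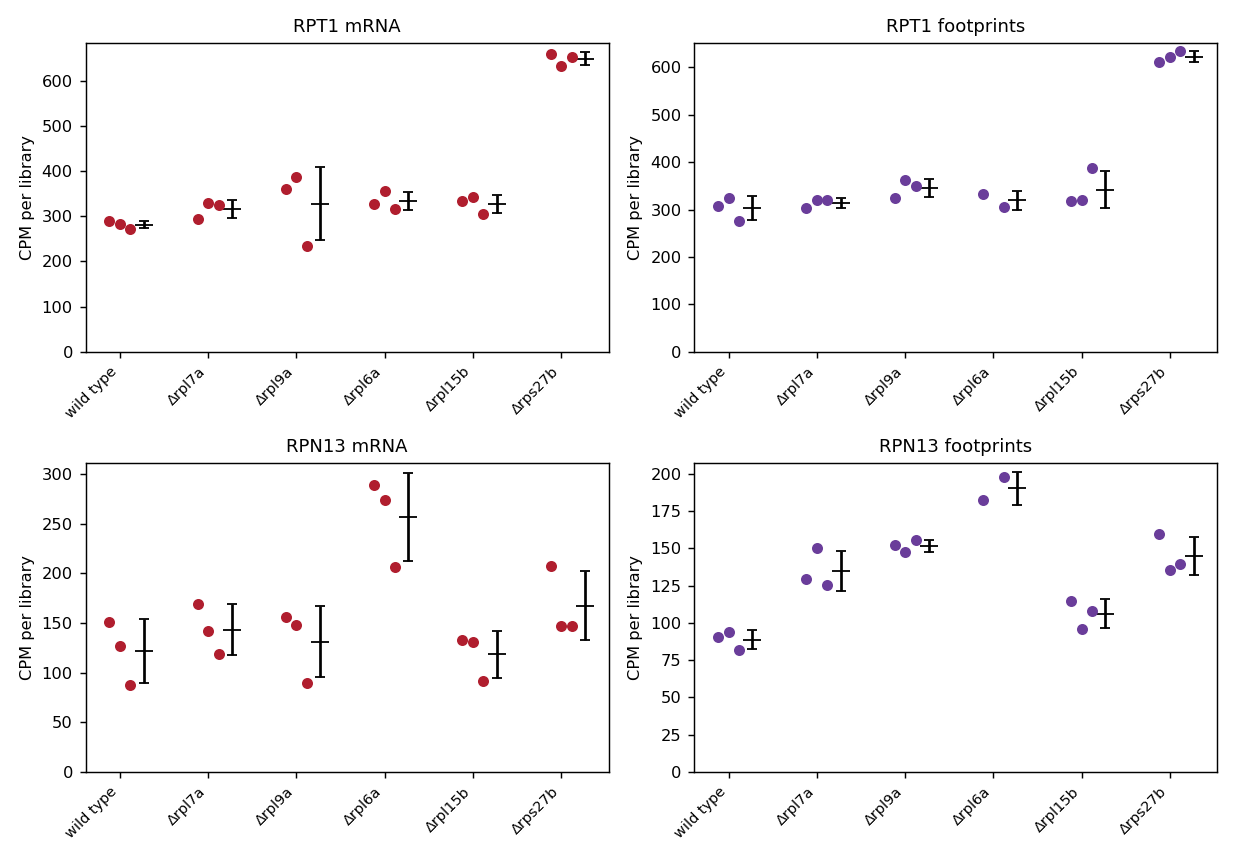
CPM of RPT1 and RPN13 in each mRNA-seq and Ribo-seq library of wild type and 5 deletions, with points for libraries and bars for the mean ± SD. RPT1 is raised in Δrps27b alone, near 650 and 620, and RPN13 footprints are above the wild-type range of 81.9 to 94.0 in all 5 deletions.

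In Ribo-seq of Δrpl7a 8 subunits rose and 0 fell, with 30% of all genes past the test: PRE3 (0.44), PRE7 (0.43), PRE8 (0.41), PUP3 (0.37) and PRE9 (0.23) of the core, and RPN13 (0.61), RPN11 (0.53) and RPT6 (0.29) of the regulatory particle. PRE3 (YJL001W), the catalytic subunit with caspase-like activity, had footprints of 162, 166 and 156 CPM in wild type and 222, 212 and 220 in Δrpl7a. RPN11 (YFR004W) had 138, 155 and 141 CPM and 209, 219 and 196. Each Δrpl7a library was above each wild-type library for both genes. The subunit median was 0.12, and PRE1, a noncatalytic beta subunit, was lowest at -0.18 (adjusted p = 0.0406). The count was 5 without the first wild-type or the first or second Δrpl7a library, and PRE3, PRE7, PRE8, RPN11 and RPN13 were called whichever library was left out.

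In Δrpl9a footprints, 5 subunits rose, RPN13 (0.77), PRE3 (0.42), RPN11 (0.41), RPT4 (0.36) and RPT6 (0.34), and 2 fell, PRE5 (-0.26) and PRE1 (-0.24), with 20.8% of all genes past the test. The 5 rises were kept whichever library was left out, and neither fall was. RPN11 stood at 194, 192 and 189 CPM and PRE3 at 199, 215 and 232, all above wild type. PRE5, an alpha subunit, stood at 173, 164 and 172 CPM in wild type and at 134, 146 and 144 in Δrpl9a, all below. The subunit median was 0.11.

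Footprints of 9 subunits rose in Δrps27b and none fell, with 37.5% of all genes past the test. The subunit median was 0.18 against -0.02 over all genes, and 31 of 32 values were above zero. Besides RPT1 and RPN13, the subunits that rose were RPN11 (0.59), PUP2 (0.37), PRE2 (0.33), RPT5 (0.31), RPN8 (0.31), PRE3 (0.26) and PRE8 (0.25). RPN6 was lowest at -0.02 (edgeR adjusted p = 0.839). RPN11 stood at 220, 208 and 228 CPM, so that its footprints were above all wild-type libraries in Δrpl7a, Δrpl9a and Δrps27b alike. The count was 3, 5 and 4 without Δrps27b library 1, 2 and 3, and RPT1, RPN11 and RPN13 were kept in all. In Δrpl6a RPN13 alone rose, with 10.2% of all genes past the test, a median of 0.04 and PUP1 lowest at -0.23 (edgeR adjusted p = 0.0968), and without the third wild-type library 2 subunits passed. In Δrpl15b 0 subunits passed by edgeR, against 3.13% of all genes, and 0 passed by DESeq2. An unadjusted p under 0.05 was found for 6 subunits (3 higher and 3 lower), against 21.8% of all genes. The lowest was RPN12 at -0.20 (edgeR adjusted p = 0.158).

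The 2 long-lived deletions were also compared with the 3 short-lived ones. The test took libraries as replicates, while the unit for lifespan is the strain. Its p-values therefore do not measure the spread among strains of a class. In mRNA, RPT1 fell (-0.36, edgeR adjusted p = 0.00281) and no subunit rose, where 44% of all genes passed, and the highest was RPN11 at 0.28 (adjusted p = 0.0111). Against wild type, RPT1 mRNA was at 0.17 in Δrpl7a and 0.22 in Δrpl9a, at 0.25 in Δrpl6a and 0.22 in Δrpl15b, none of which passed, and at 1.20 in Δrps27b. The genes of chromosome XI had a median of -0.28 in this comparison for mRNA and -0.30 for footprints. The count was 5 without the third Δrpl9a library, 2 without the third Δrpl7a library, and 3 with the replicate block, where RPN11 rose (0.27) and RPT1 (-0.37) and RPN13 (-0.34) fell, against 56.2% of all genes. In footprints 5 rose, PRE3 (0.33), PRE8 (0.25), RPT6 (0.24), RPN11 (0.20) and SCL1 (0.16), and 5 fell, RPT1 (-0.31), PRE2 (-0.21), RPN2 (-0.18), PRE5 (-0.17) and PRE1 (-0.15), with 35.1% of all genes past the test. The count was 6 without the first Δrps27b, first Δrpl6a, second Δrpl7a or first Δrpl9a library. PRE3, PRE8, RPT6, RPN11 and RPT1 were called whichever library was left out.

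Translation efficiency (TE), the change in footprints relative to mRNA tested as an interaction over both kinds of library, moved for few subunits. In Δrpl7a PRE2 (-0.56, edgeR adjusted p = 0.00391) and RPN6 (-0.51, adjusted p = 0.0085) fell, with 30.5% of all genes past the test, and the highest was RPN13 at 0.39 (adjusted p = 0.241). PRE2 mRNA was 291, 258 and 280 CPM in wild type and 379, 384 and 374 in Δrpl7a, while its footprints were 216, 226 and 210 against 198, 188 and 214. The mRNA values separated and the footprint values overlapped. In Δrpl9a PRE6 (0.62, adjusted p = 0.00489), an alpha subunit, and RPN10 (0.55) rose, with 16.3% of all genes past the test. There RPN13 was highest at 0.67 (edgeR adjusted p = 0.0559) and RPN9 lowest at -0.52 (adjusted p = 0.112).

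None of these 4 calls survived every fit with a library left out. The Δrpl7a count was 0 without the second wild-type library of either assay or the second Δrpl7a Ribo-seq library, and 1 without mRNA-seq library 1 or 3 of wild type or 1 or 2 of Δrpl7a, or Ribo-seq library 3 of wild type or 1 or 3 of Δrpl7a. The Δrpl9a count was 0 without the first wild-type mRNA-seq, the third wild-type Ribo-seq or the second Δrpl9a Ribo-seq library, and 1 without the second wild-type mRNA-seq, the first wild-type Ribo-seq or the third Δrpl9a Ribo-seq library. No subunit passed by edgeR in the other 3 deletions, where 3.89% (Δrpl6a), 0.226% (Δrpl15b) and 11.6% (Δrps27b) of all genes did. Unadjusted p was under 0.05 for 2, 0 and 6 subunits, against 26.7%, 10.1% and 35.6% of all genes, and DESeq2 called 1, 0 and 2. The highest and lowest TE values were those of RPN1 (0.51, edgeR adjusted p = 0.0251) and RPN5 (-0.37, adjusted p = 0.297) in Δrpl6a, RPN13 (0.31, adjusted p = 0.781) and PRE8 (-0.26, adjusted p = 0.551) in Δrpl15b and PUP1 (0.41, adjusted p = 0.0317) and RPT6 (-0.52, adjusted p = 0.0163) in Δrps27b. Without the third Δrps27b mRNA-seq library 1 passed there.

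RPN4 (YDL020C, chrIV:415113-416708, minus strand) was described apart from the subunits it activates. Its mRNA was 112, 110 and 109 CPM in wild type and 204, 209 and 143 in Δrpl7a. All 3 Δrpl7a libraries were above wild type, the third least. The log2 fold change was 0.75 (SE 0.14, edgeR adjusted p = 0.000268), 0.63 to 0.88 with single libraries left out. In Δrpl9a it was 147, 153 and 126 CPM, also above wild type, with a log2 fold change of 0.36 that did not pass (edgeR adjusted p = 0.0547). In Δrpl6a it was 108, 121 and 124 CPM (0.10, adjusted p = 0.675), in Δrpl15b 96.1, 105 and 109 (-0.09, adjusted p = 0.823) and in Δrps27b 141, 144 and 112 (0.27, adjusted p = 0.18). The ranges of Δrpl6a and Δrpl15b reached below the highest wild-type library. The lowest Δrps27b library lay just above it, at 0.029 against 0.019 on the log2 scale from the wild-type mean. The long-lived deletions exceeded the short-lived ones by 0.47 (edgeR adjusted p = 0.000271), in the test that takes libraries and not strains as replicates. Δrpl9a (0.36) was nearer to the short-lived Δrps27b (0.27) than to Δrpl7a (0.75).

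RPN4 footprints did not follow. They were 88.6, 79.4 and 92.0 CPM in wild type and 72.2, 58.8 and 74.9 in Δrpl7a. The Δrpl7a libraries were all below wild type, with a log2 fold change of -0.34 that missed the threshold (SE 0.12, edgeR adjusted p = 0.0289). In Δrpl9a they were 82.9, 91.5 and 98.9 CPM (0.07), in Δrpl6a 92.0 and 86.3 (0.04), in Δrpl15b 87.9, 64.3 and 94.9 (-0.07) and in Δrps27b 101, 113 and 110 (0.31, adjusted p = 0.0382). Long-lived against short-lived deletions, again with libraries as replicates, gave -0.23 (edgeR adjusted p = 0.0251). This difference passed only without the second Δrpl15b library (-0.28, adjusted p = 0.00186) or with the block (-0.25, adjusted p = 0.00818).

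The TE of RPN4 fell by 1.07 on the log2 scale in Δrpl7a (SE 0.19, edgeR adjusted p = 7.8e-05), with values of -1.23 to -0.97 when single libraries were left out, and 10.1% of all genes fell there beyond a fold of 2. Its ratio of footprints to mRNA stood at percentile 57.7 of all genes in wild type, 25.1 in Δrpl7a and 47 in Δrpl9a, and between 57.5 and 60.5 in the other deletions. In Δrpl9a the TE value was -0.29 (adjusted p = 0.265), and in the other 3 it was between -0.06 and 0.04. In wild type RPN4 was at percentile 64.1 of all genes per coding length in both assays, at 69.0 CPM per kb for mRNA and 54.3 for footprints, below each of the 32 subunits.

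The GCN4 strains divided RPN4 in another way. In PADH1-GCN4 it was 99.3, 104 and 97.8 CPM against 105, 95.8 and 100 in wild type, the same range, with an SE of 0.08 around a difference of zero (adjusted p = 0.996). In the S242L strain it was 116, 105 and 112 (0.15, SE 0.08, adjusted p = 0.195). In the plasmid pair it was 192, 171 and 157 CPM in the control and 307, 343 and 358 with PGAL-GST-GCN4, without overlap, a log2 fold change of 0.96 (SE 0.15, edgeR adjusted p = 0.000927, 0.90 to 1.04 with single libraries left out). The sources used here do not give the pair's medium, and GAL1 stood at 6706 and 3667 CPM in its wild type and overexpressing strain, against 3.00 to 5.64 elsewhere. LEU2 was at 2.67 CPM in that wild type and 4802 in the overexpressing strain, and the part of either gene in the RPN4 result was not tested.

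**Figure D5:**
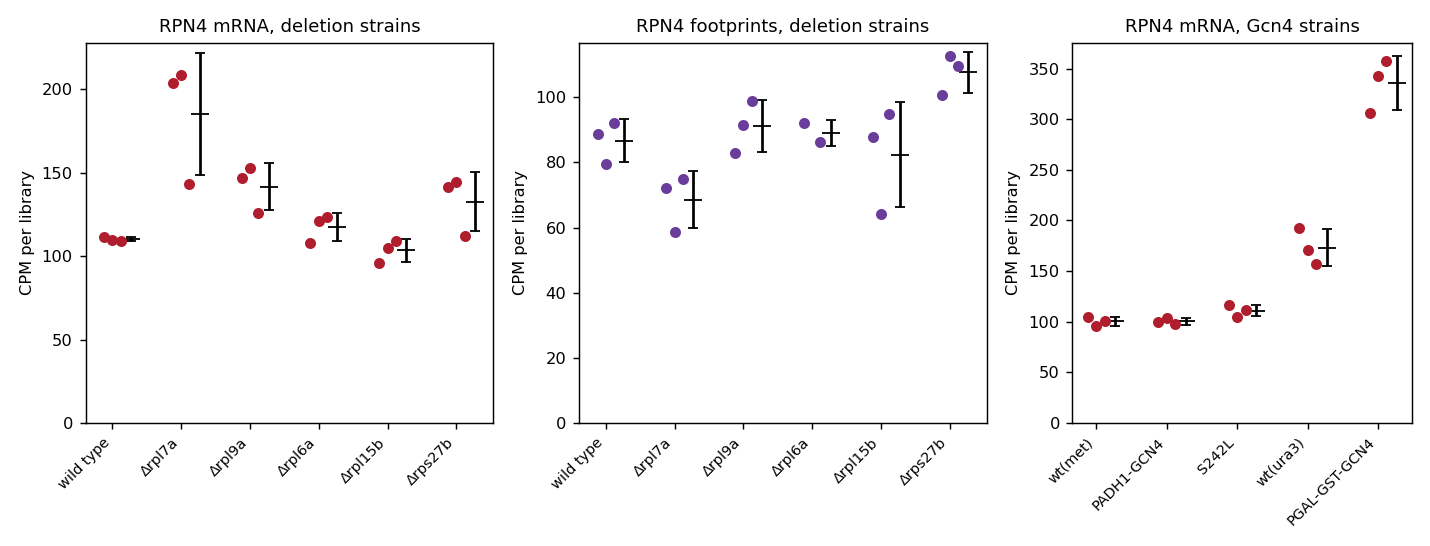
RPN4 in CPM per library, with the mean ± SD, in mRNA-seq of the deletions, Ribo-seq of the deletions and mRNA-seq of the GCN4 strains. Δrpl7a is highest for mRNA (143 to 209) and lowest for footprints (58.8 to 74.9), and PGAL-GST-GCN4 (307 to 358) is above its control (157 to 192).

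Among the subunits, PADH1-GCN4 lowered 2 mRNAs and raised 0, with 35% of all genes past the test. PRE5 stood at 211, 201 and 220 CPM in wild type and 166, 169 and 171 in PADH1-GCN4, all lower, a log2 fold change of -0.32 (edgeR adjusted p = 0.00397). RPN12, a lid subunit, stood at 263, 262 and 246 against 209, 197 and 192, also all lower, -0.36 (adjusted p = 0.00522). The subunit median was -0.14 against 0.00 over all genes, 26 of 32 values were below zero, and RPN2 was highest at 0.21 (adjusted p = 0.178). The count was 0 without the first wild-type library, 1 without wild-type library 2 or 3 or PADH1-GCN4 library 3, and 4 without the second PADH1-GCN4 library.

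In the S242L strain RPT1 rose (0.39, edgeR adjusted p = 0.00429) and RPN13 fell (-0.52, adjusted p = 0.00444), with 13.2% of all genes past the test and a subunit median of 0.10. RPT1 stood at 218, 220 and 227 CPM in wild type and 289, 293 and 287, and RPN13 at 156, 147 and 158 against 117, 111 and 94.7. Neither pair of ranges overlapped, but RPT1 was not called when any of the 6 libraries was left out. The count was 0 without wild-type library 1 or 3 or S242L library 2 or 3, and 1 without the second wild-type or first S242L library. Set directly against S242L, PADH1-GCN4 was lower for PUP1 (-0.49), PRE5 (-0.38) and SCL1 (-0.33) and higher for none, with 22.8% of all genes past the test. PUP1 stood at 224, 187 and 239 CPM in PADH1-GCN4 and 299, 296 and 315 in S242L, without overlap, and was the call kept whichever library was left out. The median was -0.17 against 0.00 over all genes, with 28 of 32 values below zero, and the count was 1 without the first or second S242L library. RPN2 was again the highest, at 0.27 (adjusted p = 0.102).

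With PGAL-GST-GCN4 0 subunits passed by edgeR, 4 had an unadjusted p under 0.05 (1 higher and 3 lower) and DESeq2 called 1 lower. Of all genes, 33.6% passed by edgeR and 57% had an unadjusted p under 0.05. The subunit median was 0.03, RPN5 of the lid was highest at 0.43 (adjusted p = 0.0617) and PRE7 lowest at -0.47 (adjusted p = 0.0168). PRE7 stood at 152, 174 and 156 CPM in the control and 114, 108 and 125 with the plasmid, without overlap, and with the replicate block, which paired these libraries, it fell by 0.47 (adjusted p = 0.00908), against 45.9% of all genes called.

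PRE4 and RPN9 are the members on the study's list of genes bound by Gcn4. Neither passed the test in any of the 21 comparisons without the replicate block. RPN9, a lid subunit, stood at 330, 300 and 257 CPM in the wild type of the PADH1-GCN4 set, 259.4, 277.5 and 241.96 in PADH1-GCN4 and 269, 272 and 265 in S242L, and at 390, 364 and 383 against 422, 376 and 363 in the plasmid pair. These ranges overlap. PRE4 stood at 153, 143 and 165 CPM in wild type, 143, 116 and 137 in PADH1-GCN4 and 164, 156 and 144 in S242L, and at 159, 187 and 156 against 155, 188 and 201 in the plasmid pair. In the deletions RPN9 mRNA was 407, 443 and 327 CPM in wild type, 626, 563 and 374 in Δrpl7a, 549, 594 and 372 in Δrpl9a and 570, 654 and 457 in Δrps27b, with the third library lowest in each. The replicate block called RPN9 higher in these 3 (0.39, 0.35 and 0.51) and PRE4 in Δrps27b (0.41), where PRE4 stood at 153, 146 and 159 CPM in wild type and 180, 197 and 234 in the deletion.

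The subunits with and without the element were described apart. In Δrps27b mRNA the 27 with it had a median log2 fold change of 0.37, the 5 without it 0.12 and the 44 other genes with it 0.17. In Δrpl7a mRNA the medians were 0.20, 0.18 and 0.12, with 2, 0 and 11 genes higher and 0, 0 and 6 lower, against 44.8% of all genes called. In PADH1-GCN4 they were -0.12, -0.26 and 0.11. In Δrpl7a footprints they were 0.14, 0.11 and -0.15. In Δrps27b mRNA the 5 ran from -0.39 (PUP1) to 0.50 (RPN8) and the 27 from -0.14 to 1.20 (RPT1). No difference between these groups of genes was tested.

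Some genes that assemble, cap or associate with the proteasome moved further than the subunits. Of 14 listed, 4 rose and 0 fell in Δrpl7a mRNA (median 0.28), 1 and 0 in Δrpl9a, 1 and 0 in Δrpl6a, 0 and 0 in Δrpl15b (11 of 14 values above zero) and 4 and 0 in Δrps27b (median 0.48). Over all genes 44.8%, 18.1%, 11.6%, 0.656% and 13.8% passed in these strains, and the median over all genes in Δrpl15b was -0.003. TMA17, an assembly chaperone of the regulatory particle, had the largest value. Its mRNA was 50.2, 39.1 and 22.7 CPM in wild type, 427, 322 and 104 in Δrpl7a and 183, 158 and 76.3 in Δrpl9a, with both deletions above wild type throughout and the third library lowest in each strain. The log2 fold changes were 2.93 (SE 0.49, edgeR adjusted p = 0.000103) and 1.90 (adjusted p = 0.00623), the second of which was lost in 5 of the 6 fits with a library left out. TMA17 footprints were 19.0, 18.2 and 9.81 CPM in wild type and 26.9, 30.1 and 28.1 in Δrpl7a (0.87, adjusted p = 0.00189), and its TE fell by 2.05 there (adjusted p = 0.00375), a call lost without the third wild-type or first Δrpl7a mRNA-seq or the first or second wild-type Ribo-seq library.

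Footprints of BLM10, an alternative cap of the core, were 167, 162 and 195 CPM in wild type and 73.7, 76.8 and 77.6 in Δrpl7a, a log2 fold change of -1.20 (edgeR adjusted p = 7e-10). Those of ECM29, a proteasome adaptor that holds the element itself, were 210, 199 and 228 against 105, 101 and 107, a change of -1.02 (adjusted p = 2.81e-09). Both were below wild type in all 3 libraries while 8 subunits rose. In Δrpl6a, BLM10 rose in TE (1.10, adjusted p = 0.000706) and the core chaperone PBA1, on chromosome XII, in footprints (1.10). ADD66, another core chaperone, on chromosome XI, rose in Δrps27b (1.22 in mRNA, 1.16 in footprints). With PGAL-GST-GCN4 the proteasome-bound ubiquitin ligase HUL5 (1.64) and the base chaperone NAS6 (1.13) rose, and the core chaperone POC4 (-1.28) fell.

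Of 17 genes of ubiquitin activation, conjugation and delivery, 6 rose and 0 fell in Δrpl7a mRNA, 2 and 0 in Δrpl9a, 1 and 0 in Δrpl6a, 0 and 0 in Δrpl15b (11 of 17 above zero) and 4 and 0 in Δrps27b, against the same shares of all genes. UBI4, which encodes a string of ubiquitin repeats, stood at 61.3, 81.0 and 88.3 CPM in wild type, 465, 417 and 284 in Δrpl7a and 330, 354 and 134 in Δrpl9a, all above wild type. The log2 fold changes were 2.34 (SE 0.29, edgeR adjusted p = 5.62e-06) and 1.82 (adjusted p = 0.000172), with 1.13 in Δrpl6a, a call lost whichever library was left out, and 1.13 with PGAL-GST-GCN4. In Δrps27b its footprints were 61.1, 69.5 and 53.8 CPM against 234, 182 and 152 in wild type (-1.62, adjusted p = 5.82e-07), and its TE fell by 2.32 in Δrpl7a, 1.59 in Δrpl9a and 2.29 in Δrps27b. Other ubiquitin genes share the repeats, and only uniquely mapped reads were counted, so UBI4 values are uncertain. UBI4 holds the element too, printed on its coding strand (chrXII:65349-65377) for comparison with those of the subunits.
UBI4: ggctccgggtTTTGCCACCtttgaattcg

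UBC5, a stress-induced conjugating enzyme, rose by 1.10 in Δrpl7a mRNA and by 2.14 with PGAL-GST-GCN4. In Δrps27b UBA1, the ubiquitin-activating enzyme (1.17), DOA1, a Cdc48 cofactor (1.05), and UFD4, a ubiquitin ligase (1.04 in mRNA and 1.40 in footprints), rose, and all 3 lie on chromosome XI, whose mRNA median was 0.95.

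The 8 regulators listed for RPN4 were HSF1, PDR1, PDR3 and YAP1, which bind its promoter, and UBR2, MUB1, RAD6 and UBR1 of ubiquitin ligase systems, the first 3 of which act on Rpn4. In Δrpl7a 6 fell and 0 rose in footprints (median -0.55), where 30% of all genes passed, while 2 fell and 0 rose in mRNA, where 44.8% did. Footprints of PDR3 were 65.9, 40.1 and 49.0 CPM in wild type, 12.4, 13.2 and 14.4 in Δrpl7a, 22.7, 22.2 and 19.2 in Δrpl9a and 12.1, 10.3 and 14.5 in Δrps27b, all below wild type. The log2 fold changes were -1.96, -1.28 and -2.07 (edgeR adjusted p = 6.94e-09, 2.87e-06 and 3.23e-09). UBR2, the ligase for Rpn4, had 35.6, 33.6 and 40.0 CPM of footprints in wild type and 10.5, 14.3 and 16.1 in Δrpl7a, all below, a change of -1.41 (adjusted p = 3.11e-07). The TE of PDR3 fell by 1.32 in Δrpl7a, 1.43 in Δrpl6a and 1.41 in Δrps27b. In PADH1-GCN4 mRNA 6 of the 8 rose and 1 fell (median 0.39, 35% of all genes past the test), with PDR3 highest at 0.69 and RAD6 lowest at -0.65, and in PGAL-GST-GCN4 3 rose and 0 fell (33.6% of all genes), with HSF1, the heat shock activator, highest at 1.34 (adjusted p = 0.00102).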

How the data were processed

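The authors sequenced mRNA with a strand-directional kit and ribosome footprints, and clipped adapters with the FASTX toolkit. Reads were mapped with segemehl to the yeast transcriptome, and uniquely mapped reads were counted per gene. For Ribo-seq, and not for mRNA-seq, the paper limits the count to coding-region reads. The submitters' processing notes name sacCer3 and DESeq2. The deposited values are whole-number counts, not normalized. The sources used here do not give whether counting used strand. No member's coding span overlaps that of another coding gene.

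Counts were tested with edgeR 4.0.16 (quasi-likelihood, TMM scaling, filterByExpr) under R 4.3.3 with limma 3.58.1, on 5490 genes (mRNA-seq of deletions), 5342 (Ribo-seq), 5545 (PADH1-GCN4 set), 5574 (PGAL-GST-GCN4 set) and 5319 (TE, an interaction of assay and strain). Each fit held all libraries of its set, with Benjamini-Hochberg adjustment over all genes and a threshold of 0.01. CPM are scaled by TMM factors. DESeq2 1.42.0, other scaling, no count filter, other thresholds, a replicate block, fits of only the compared groups, removal of chromosomes XI and XII and of each library were alternatives. Same-numbered libraries deviated together (correlation above 0.1 for every pair) in mRNA-seq of all deletions (0.174 to 0.599) and in the PGAL-GST-GCN4 pair (0.365 to 0.431), and not in the other sets, whose numbers are shared labels only. Here 1 strain is 1 pure culture, and a change in RNA per cell common to all genes cannot be seen after scaling. Replicate libraries differed by more than sampling noise (lowest chi-square per gene 3.11), and simulated counts were used to test the scripts. In mRNA-seq of wild type and of each deletion, library 3 was further from libraries 1 and 2 than these were from each other. In wild type the chi-square per gene was 3.84 between 1 and 2, against 27.6 and 23.9 with library 3. The main fit did not block on the replicate number.

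Members and lists were chosen with earlier results of these data known. All 33 members could be named. Values per library are given for RPN4, for members past the threshold with a fold over 2, for RPT1, RPN13, PRE4 and RPN9, and for examples chosen after their values were seen. The highest and lowest member is named in each comparison with wild type, and list genes where they passed with a fold over 2. Promoter letters came from the RefSeq R64 genome, whose names matched 5741 of 5743 and 5664 of 5666 identifiers. Protein sequences were not used here.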

Additional observations from a re-analysis of the deposited data

Results flagged for a closer look

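The TE of RPN4 in Δrpl7a against wild type, -1.07 on the log2 scale, was singled out because footprints and mRNA of the same strain moved apart, as the interaction of assay and strain tested (edgeR adjusted p = 7.8e-05). It kept its direction and side of the threshold under all 18 alternatives, from -1.23 to -0.97 with single libraries left out. The cause was not tested. Groups of 3 or 2 libraries were too small for a test of single outlying libraries.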

How the results depend on the processing

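Counts of subunits past the threshold depended on the processing. In Δrpl9a mRNA the split of higher and lower did too. It was 1 and 3 at an adjusted p below 0.05, 0 and 3 by DESeq2 and 1 and 1 with the replicate block. Shares of all genes stand beside the main counts above and beside some counts with the block. For most settings in this section they are not given, so these counts cannot be told from a general change in calls. Under a required fold over 2 the count was 0 for mRNA in Δrpl7a, Δrpl9a and long-lived against short-lived deletions, for footprints in the same 3, for TE in Δrpl7a and Δrpl9a and for PADH1-GCN4, S242L and their direct comparison, and 1 for mRNA and for footprints in Δrps27b. With an adjusted p below 0.05 it was 7, 4, 3 and 14 for mRNA in Δrpl7a, Δrpl9a, Δrpl6a and Δrps27b and 3 for long-lived against short-lived; 3, 15 and 17 for footprints in Δrpl6a, Δrps27b and long-lived against short-lived; 5, 1 and 4 for TE in Δrpl7a, Δrpl6a and Δrps27b; and 7, 10 and 1 for PADH1-GCN4, PADH1-GCN4 against S242L and PGAL-GST-GCN4. DESeq2 gave 4, 3, 3, 10 and 2 for mRNA in Δrpl7a, Δrpl9a, Δrpl6a, Δrps27b and long-lived against short-lived, 3 and 14 for footprints in Δrpl6a and Δrps27b, 1 and 2 for TE in those strains, and 6, 8 and 1 for PADH1-GCN4, PADH1-GCN4 against S242L and PGAL-GST-GCN4. The replicate block gave 7, 2, 14 and 3 for mRNA in Δrpl7a, Δrpl9a, Δrps27b and long-lived against short-lived, 5, 1 and 1 for TE in Δrpl9a, Δrpl6a and Δrps27b, and 1 for PGAL-GST-GCN4, and moved RPN4 footprints in long-lived against short-lived deletions past the threshold (-0.25). Other counts were within 1.5 times and the RPN4 calls unchanged with the block, but in Ribo-seq and the PADH1-GCN4 set the libraries share only a number.

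Without genes of chromosomes XI and XII the count was 0 for mRNA and footprints in Δrpl6a, mRNA in long-lived against short-lived and S242L, and the footprint median in Δrps27b was 0.20, since RPT1 and RPN13 are themselves left out. Fitting only the groups compared gave 0 for mRNA in Δrpl7a and Δrpl9a and 1, 0 and 1 for TE in Δrpl7a, Δrpl9a and Δrps27b, from fewer libraries, and median-of-ratios scaling gave 1 for TE in Δrpl7a. In place of the SD of subunit levels per length in wild type, the interquartile range was 0.76 for mRNA and 0.57 for footprints, and the footprint SD without RPN10 and RPN13 was 0.333.

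With single libraries left out, counts ran from 0 to 2 (mRNA Δrpl7a), 1 to 9 (Δrpl9a), 0 to 2 (Δrpl6a), 1 to 5 (Δrps27b) and 1 to 5 (long-lived against short-lived); 5 to 7, 1 to 2, 3 to 8 and 6 to 13 (footprints of Δrpl7a, Δrpl6a, Δrps27b and long-lived against short-lived); 0 to 2, 0 to 2 and 0 to 1 (TE of Δrpl7a, Δrpl9a and Δrps27b); and 0 to 4, 0 to 1 and 1 to 3 (PADH1-GCN4, S242L and their comparison). Medians ran from 0.12 to 0.22 and 0.29 to 0.36 (mRNA Δrpl7a and Δrps27b), 0.090 to 0.12, 0.028 to 0.077, -0.095 to 0.017 and 0.17 to 0.18 (footprints of Δrpl9a, Δrpl6a, Δrpl15b and Δrps27b), -0.0077 to 0.10, -0.14 to -0.018 and -0.14 to -0.046 (TE of Δrpl7a, Δrpl15b and Δrps27b) and -0.18 to -0.13 (PADH1-GCN4), RPN4 footprints of long-lived against short-lived from -0.28 to -0.18 and the wild-type footprint SD from 0.328 to 0.334. Of all alternative values, 2846 kept direction and side, 132 moved, 208 fell short of the threshold, 17 passed it and none that passed in either fit changed sign; sign changes between values that both missed it were not counted. Causes were not tested unless given.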
